A study of Macaca mulatta with 24 samples.

Results

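Erythroid transcription factors are the DNA-binding proteins and their partners that drive a blood progenitor toward the red cell. The factors looked for were KLF1, GATA1, TAL1, NFE2, SOX6, LMO2, GFI1B, ZFPM1, LYL1 and KLF3, and every probe that the array names for one of them was taken. The array holds 13 such probes among 43603, for 7 of the 10 genes: 1 for KLF1, 1 for GATA1, 2 each for TAL1, NFE2, SOX6 and GFI1B, and 3 for LMO2. No probe was named for ZFPM1, LYL1 or KLF3, and they are not analysed here.

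Whole-blood RNA, depleted of globin transcripts, was hybridized to 24 one-colour Agilent arrays, a rhesus array by the labels and by the probe annotation in the files, although the methods section names a human array. The blood came from 7 Chinese-origin rhesus macaques (4 male, 3 female, average age 6 years) with no genetic modification given in the sources, all of which received 4 Gy to the total body. The 4 groups are pre-irradiation (0 Gy, 7 arrays), day 3 (4 arrays), day 5 (6 arrays) and day 7 (7 arrays) after the dose, and 4 of the animals have all 4 times. The sample labels name X-rays and place the control blood at day 0, whereas the paper's methods name gamma rays and an earlier bleed. All groups are the same animals bled repeatedly, and no unirradiated animal of days 3 to 7 is among the arrays, so the dose, the elapsed time and the repeated bleeding cannot be told apart.

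In the bone marrow GATA1, TAL1 and LMO2 sit together in a DNA-bound complex, in which GATA1 and TAL1 bind DNA and LMO2 bridges them. KLF1 switches on adult globin, heme and red cell membrane genes, and SOX6 aids the last steps of maturation and the silencing of fetal globin. NFE2 binds the globin control regions, and GFI1B is a repressor. Several of the factors also serve other lineages. GATA1, NFE2, TAL1 and GFI1B act in megakaryocytes, from which platelets bud, and LMO2 and NFE2 are found in myeloid cells. Blood carries such transcripts in reticulocytes, the youngest circulating red cells, and in platelets, so a level in whole blood can move because fewer cells of a type circulate or because each cell holds less RNA, and these cannot be told apart here.

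The probes are 60 bases long. Those of SOX6, GATA1 and GFI1B below stand for factors whose courses differed, the TAL1 pair is shown because its probes differ in composition and in signal, and the LMO2 pair because its probes are nearly the same. Capitals mark runs of at least 6 G or C in the TAL1 pair and the 59 bases that the LMO2 pair shares. Positions are those of the array annotation on the rheMac2 build.
SOX6 A_01_P1726301, chr14:55965304-55965363, plus strand: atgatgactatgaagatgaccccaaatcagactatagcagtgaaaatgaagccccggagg
GATA1 A_01_P1740431, chrX:46658329-46658388, plus strand: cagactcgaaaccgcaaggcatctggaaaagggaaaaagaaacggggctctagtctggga
GFI1B A_01_P1699916, chr15:5639488-5639523 (a stretch of 36 bases of the 60), minus strand: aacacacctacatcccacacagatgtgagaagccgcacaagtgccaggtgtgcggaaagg
TAL1 A_01_P1765876, chr1:50044497-50044556, minus strand: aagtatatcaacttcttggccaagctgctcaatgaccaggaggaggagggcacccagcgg
TAL1 A_01_P1800341, chr1:50048132-50048191, minus strand: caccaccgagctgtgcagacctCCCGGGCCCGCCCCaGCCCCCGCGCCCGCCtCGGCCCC
LMO2 A_01_P1679547, chr14:37965505-37965564, plus strand: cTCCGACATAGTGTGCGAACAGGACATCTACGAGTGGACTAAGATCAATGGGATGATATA
LMO2 A_01_P1679546, chr14:37965506-37965565, plus strand: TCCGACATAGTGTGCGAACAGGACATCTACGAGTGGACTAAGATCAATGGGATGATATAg
The LMO2 pair lies 1 base apart and is close to 1 measurement made with 2 probes. The longest unbroken run of G and C is 15 bases in TAL1 A_01_P1800341 and 4 in A_01_P1765876. The remaining probes are KLF1 A_01_P009962 at chr19:12551475-12551534, NFE2 A_01_P012151 at chr11:51399360-51399419 and A_01_P1732781 at chr11:51399455-51399514, SOX6 A_01_P1792986 at chr14:55971667-55971726, GFI1B A_01_P020125 at chr15:5638857-5638916 and LMO2 A_01_P014250 at chr14:37965947-37966006.

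Values below are the scanner's processed signal on a log2 scale after each array was aligned to the median array, so a difference of 1 is a 2-fold difference in signal. Levels of different probes are not comparable with each other. The number of arrays limits the precision, and 48.3 to 61.2% of all probes were well above background on an array. Animals are numbered as the labels number the replicates. The arrays were scanned in 2 sessions. Session 1 held 6 pre-irradiation and 6 day 7 arrays, and session 2 held 1 pre-irradiation, all day 3, all day 5 and 1 day 7 array, so the day 7 comparison was largely made within a session and the day 3 and day 5 comparisons were not.

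The factors did not move as a block. KLF1 and SOX6 fell far on every day, GFI1B and the near-identical LMO2 pair rose at day 3, LMO2 was still high at day 5, and by day 7 no probe was higher while KLF1, SOX6, GATA1, 1 TAL1 probe and 1 NFE2 probe were lower. At an adjusted p under 0.005 by limma (adjusted after Benjamini and Hochberg over all probes), 7 of the 12 member probes that could be tested changed at day 3 (3 lower, 4 higher), where 13.5% of all probes did. Of all probes 5.43% were higher and 8.03% lower at that time. The count was 7 of 12 at day 5 (4 lower, 3 higher) against 16.7% of all probes, 7.15% higher and 9.59% lower, and 6 of 12 at day 7, all lower, against 10.9% of all probes, 3.6% higher and 7.28% lower (none of 12 was higher at an unadjusted p under 0.05). One of the 12, SOX6 A_01_P1792986, met the filter on dim probes (which asks for 4 or more of 24 arrays to read well above background) only through the pre-irradiation arrays, where it is high, and so was bound to differ. Without such probes 6, 6 and 5 of 11 changed on the 3 days, against 13.3% of all probes at day 3, 16.5% at day 5 and 2849 of 26693 at day 7. The median log2 change of the 12 probes was 0.23, −0.71 and −1.08, that of the 11 was 0.66, −0.70 and −1.03, and that of all probes tested was 0.02 on each day. These probe counts hold several probes of a gene. Read by the brightest probe of each gene, 2, 3 and 4 of 7 genes were lower and 1, 1 and 0 higher. Of all named genes 7.56, 9.11 and 7.19% were lower and 5.95, 6.25 and 2.68% higher.

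**Figure D1:**
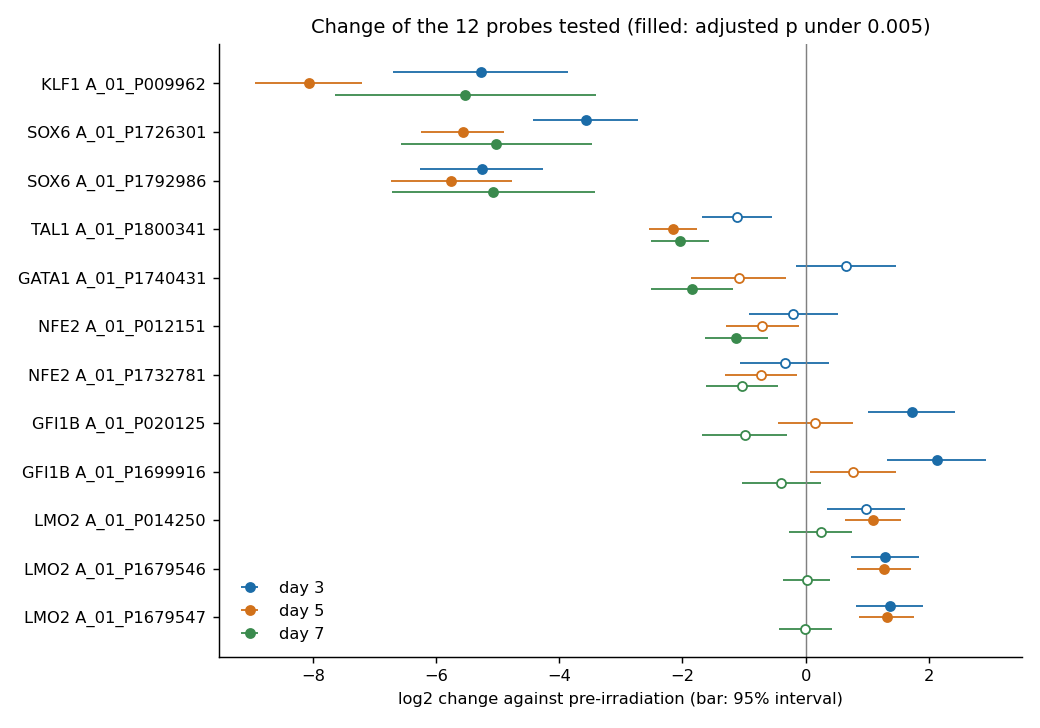
Log2 change against pre-irradiation (x axis) of the 12 probes tested, at day 3 (n = 4 arrays), day 5 (n = 6) and day 7 (n = 7) against 7 pre-irradiation arrays. Points are limma estimates, bars are 95% intervals, and filled points passed an adjusted p of 0.005. KLF1 and SOX6 lie far to the left on every day, GFI1B and LMO2 to the right at day 3.

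KLF1 is the factor most tied to the red cell program, and it was called lower on each day. Its signal before irradiation ran from 12.33 through a median of 13.10 to 14.92. At day 3 the 4 arrays read 6.97 (animal 1), 10.33 (animal 2), 7.30 (animal 4) and 7.68 (animal 7). At day 5 the lowest, median and highest arrays were 4.54, 5.37 and 5.84, and at day 7 they were 4.21, 7.30 and 11.37. Every irradiated array lay below every pre-irradiation array. Day 5 was uniformly low, with an SD of 0.56 and 3 of 6 arrays well above background, and day 7 was widely spread, with an SD of 2.78. The log2 change was −5.28 ± 0.65 (SE, n = 4 against 7, limma adjusted p = 0.000254) at day 3, −8.07 ± 0.41 (n = 6 against 7, limma adjusted p = 2.1e-08) at day 5 and −5.53 ± 0.99 (n = 7 against 7, limma adjusted p = 0.000966) at day 7. These are 38.8-fold, 268-fold and 46.1-fold lower signals as measured, and the size at day 5 depends on how background and dim signals are treated. Normexp background correction gave −5.00 for KLF1 on that day (limma adjusted p = 1.39e-05). Here and below, normexp includes an offset of 50 added to the corrected signals, where array medians of the processed signal ran from 16.7 to 106. With the scan session as a block the day 3 change was −6.25 and did not pass (limma adjusted p = 0.0208), and the day 5 change was −9.04 and did (limma adjusted p = 6.04e-05).

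SOX6 followed KLF1 closely. Its probe A_01_P1726301 ran from 8.56 through 9.79 to 10.17 before irradiation. At day 3 it read 5.10, 6.86, 5.72 and 6.31 in animals 1, 2, 4 and 7. The lowest, median and highest arrays were 3.34, 4.00 and 4.63 at day 5 and 2.50, 3.72 and 7.34 at day 7. No irradiated array reached the pre-irradiation range, and at day 5 none was well above background. The fall was −3.57 ± 0.39 on the log2 scale at day 3 (limma adjusted p = 0.000117), and −4.17 with the scan session as a block (limma adjusted p = 0.0132). At day 5 it was at least 26.9-fold (limma adjusted p = 4.94e-08), a bound set by the lowest measurable signal on those arrays, with measured means of 9.57 before and 4.00 after. Normexp background correction gave −1.85 at day 3 and −1.69 at day 5 for this SOX6 probe, and neither passed (limma adjusted p = 0.00912 and 0.0253), and at day 7 it gave −2.44, which passed (limma adjusted p = 0.00388). At day 7 it was −5.02 ± 0.73 (limma adjusted p = 0.000187), with 2 of 7 arrays well above background.

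The other SOX6 probe, A_01_P1792986, gave the same picture. It ran from 8.06 through 8.62 to 10.48 before irradiation and read 2.82, 4.85, 3.06 and 3.62 in animals 1, 2, 4 and 7 at day 3, none of them well above background. The fall at day 3 was therefore at least 16.8-fold (limma adjusted p = 2.69e-05), with measured means of 8.85 and 3.59. At day 5 the arrays ran from 2.22 through 2.72 to 4.95, with 1 of 6 well above background, and the measured change was −5.75 ± 0.46 (limma adjusted p = 1.14e-06). At day 7 they ran from 2.13 through 3.01 to 8.09, with 2 of 7 well above background and 1 of 7 in the pre-irradiation range, and the measured change was −5.07 ± 0.77 (limma adjusted p = 0.000276). The probe entered the tests only because all 7 pre-irradiation arrays were well above background, so these changes describe it and are not separate support for a fall of SOX6. With normexp background correction this SOX6 probe changed by −1.96, −1.48 and −2.20 at days 3, 5 and 7, and none passed (limma adjusted p = 0.0245, 0.0668 and 0.0123).

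**Figure D2:**
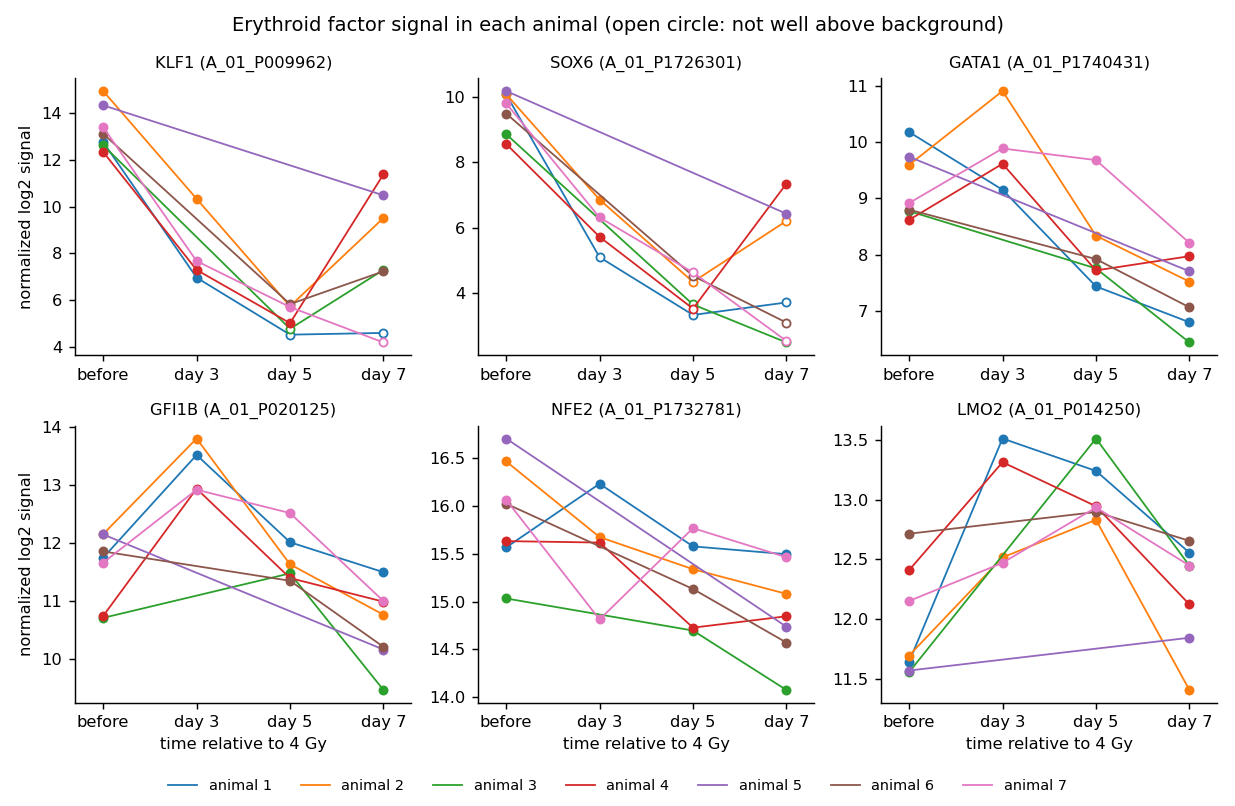
Normalized log2 signal (y axis) of 1 probe for each of 6 factors before irradiation and at days 3, 5 and 7, with a line for each of 7 animals that joins the times measured. Open circles are arrays on which the probe was not well above background. KLF1 and SOX6 were lower in every animal, and at day 7 animals 4, 5 and 2 read highest on both, though animal 2 was not well above background on SOX6.

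The animals parted at day 7. KLF1 read 11.37 in animal 4, 10.48 in animal 5, 9.51 in animal 2, 7.30 in animal 3, 7.24 in animal 6, 4.61 in animal 1 and 4.21 in animal 7, and the last 2 were not well above background. SOX6 A_01_P1726301 was likewise highest in animals 4, 5 and 2, at 7.34, 6.42 and 6.21, and at most 3.72 in the other 4. Only animals 4 and 5 were well above background on this SOX6 probe. The day 7 array of animal 2 had the lowest median processed signal of all arrays, 16.7, so its SOX6 rank rests on a signal near background. Against the animal's own pre-irradiation array the KLF1 change ran from −9.18 in animal 7 to −0.96 in animal 4 on the log2 scale. The summed signal of 39 genes for globin, heme and red cell membrane proteins had the same top 3 as KLF1. It was 1870090 in animal 4, 1288100 in animal 5 and 897749 in animal 2, and from 60279 to 281962 in the other 4, against 2280140 to 4742210 before irradiation. On the pre-irradiation arrays 37 of the 39 genes were well above background on every array, at day 5 26 of them. The part of red cell RNA in the KLF1 and SOX6 values was not tested.

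**Figure D3:**
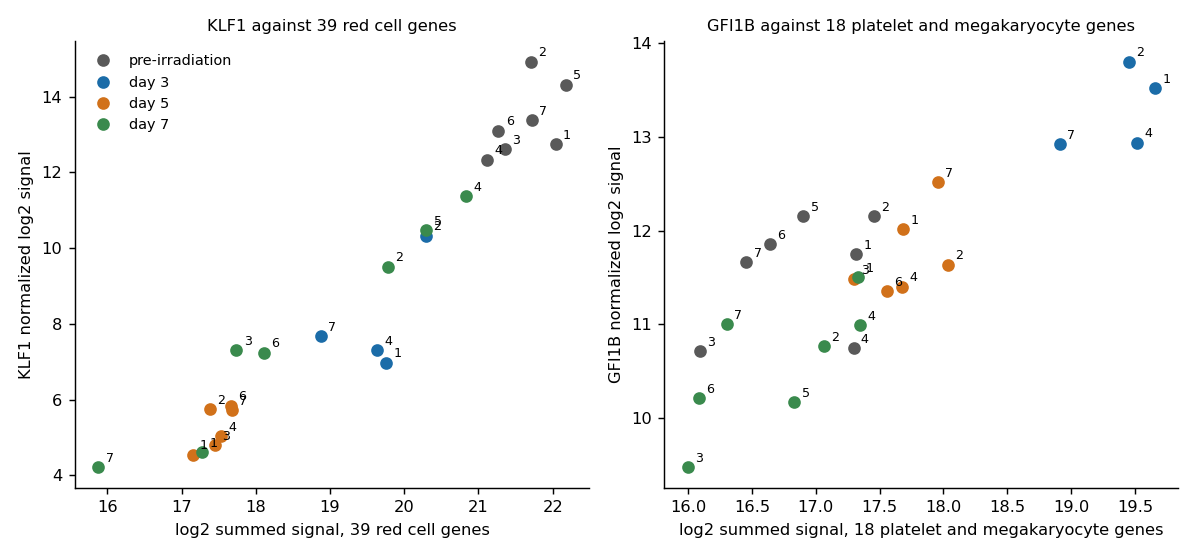
Left, KLF1 (A_01_P009962) normalized log2 signal against the log2 summed signal of 39 red cell genes on 24 arrays. Right, GFI1B (A_01_P020125) against 18 platelet and megakaryocyte genes. Each point is an array, coloured by group and numbered by animal. The day 7 arrays spread along the left plot with animals 4, 5 and 2 highest, and the 4 day 3 arrays stand apart at the top right of the right plot.

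GATA1, which works in red cell, megakaryocyte, mast cell and eosinophil precursors, took another course. Its probe ran from 8.62 through 8.92 to 10.18 before irradiation and was well above background on all 24 arrays. At day 3 it read 9.15, 10.91, 9.62 and 9.89 in animals 1, 2, 4 and 7, of which only 10.91 lay above the pre-irradiation range. The lowest, median and highest arrays were 7.44, 7.84 and 9.68 at day 5 and 6.44, 7.52 and 8.21 at day 7. The day 5 arrays overlapped the earlier range through animal 7 alone, and at day 7 all 7 arrays lay below it. The log2 change was 0.66 ± 0.37 at day 3 (limma adjusted p = 0.185) and −1.09 ± 0.36 at day 5 (limma adjusted p = 0.03), neither of which passed, and −1.84 ± 0.31 at day 7 (limma adjusted p = 0.000623), a 3.59-fold lower signal. The day 7 change of GATA1 did not pass with normexp background correction, at −1.20 (limma adjusted p = 0.0222), or with no shift between arrays, at −1.61 (limma adjusted p = 0.0532). Without animal 7 the day 5 change was −1.45 and passed.

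NFE2, a subunit of a factor that binds globin control regions and is needed to form platelets, moved least among the factors that fell. The probe A_01_P012151 ran from 14.91 through 16.01 to 16.43 before irradiation, read 16.32, 15.73, 15.51 and 14.91 in animals 1, 2, 4 and 7 at day 3, and had lowest, median and highest arrays of 14.51, 15.29 and 15.64 at day 5 and 14.26, 14.77 and 15.10 at day 7. The groups overlapped on every day, and 5 of 7 day 7 arrays lay below the pre-irradiation range. Its log2 change was −0.20 ± 0.33, −0.70 ± 0.27 and −1.12 ± 0.24 at days 3, 5 and 7, and only the last passed (limma adjusted p = 0.00333). The other probe, A_01_P1732781, changed by −1.03 ± 0.27 at day 7 and did not pass (limma adjusted p = 0.0123). Both probes were lower at day 7 in 7 of 7 animals. The call on A_01_P012151 held under 8 of 22 other settings, with the direction kept in all 22.

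GFI1B, a repressor at work in red cell and megakaryocyte precursors, rose at day 3. Its probe A_01_P020125 ran from 10.71 through 11.75 to 12.16 before irradiation and read 13.52, 13.80, 12.94 and 12.92 in animals 1, 2, 4 and 7 at day 3. The probe A_01_P1699916 ran from 4.17 through 5.65 to 6.02 and read 7.41, 7.86, 7.35 and 6.87. On both probes all 4 day 3 arrays lay above all 7 pre-irradiation arrays. The log2 change was 1.72 ± 0.32 (limma adjusted p = 0.00231), a 3.29-fold rise, and 2.13 ± 0.37 (limma adjusted p = 0.00146), a 4.37-fold rise, though A_01_P1699916 was well above background on 4 of 7 pre-irradiation arrays. With normexp background correction the GFI1B changes were 1.54 and 0.76, and neither passed (limma adjusted p = 0.031 and 0.261). With the scan session as a block the changes were 1.14 and 1.35 and neither passed (limma adjusted p = 0.271 and 0.239), and with the animal as a block they were 1.72 and 2.15 (limma adjusted p = 0.00528 and 0.00469).

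The rise of GFI1B did not last. At day 5 A_01_P020125 ran from 11.35 through 11.56 to 12.52, a change of 0.16 ± 0.29 (limma adjusted p = 0.703), and at day 7 from 9.47 through 10.77 to 11.50, a change of −0.99 ± 0.32 (limma adjusted p = 0.0334). A_01_P1699916 changed by 0.77 ± 0.32 and −0.39 ± 0.30 on these days (limma adjusted p = 0.0796 and 0.353). Compared directly, the log2 change from day 3 to day 7 was −2.71 ± 0.36 (limma adjusted p = 0.00223) for A_01_P020125 and −2.52 ± 0.27 (limma adjusted p = 0.000746) for A_01_P1699916, and the arrays of these days did not overlap. With the animal as a block these changes were −2.23 and −2.34 and did not pass (limma adjusted p = 0.00748 and 0.00983). Nor did these GFI1B changes pass with normexp background correction, at −2.30 and −0.83 (limma adjusted p = 0.022 and 0.534), or with no shift between arrays, at −2.41 and −2.23 (limma adjusted p = 0.0796 and 0.0817).

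Platelet genes moved with GFI1B. The platelet and megakaryocyte list has 22 genes, of which 18 were tested, and 15 of these rose at day 3, 4 at day 5 and none at day 7 by limma (1 higher and 2 lower at an unadjusted p under 0.05), where 5.95, 6.25 and 2.68% of named genes were higher. With the animal as a block 11, 8 and 0 rose. Its summed signal ran from 69998 to 180150 before irradiation, from 494342 to 827304 at day 3, from 161186 to 269264 at day 5 and from 65378 to 166684 at day 7, and all 18 genes were well above background on every day 3 array. GP1BA, part of the receptor for von Willebrand factor, was well above background on no pre-irradiation array. It met the filter only through irradiated arrays, where it is high, and is given as a description. GP1BA was at least 3.25-fold higher at day 3, from a measured mean of 3.15 to 6.99. The 15 genes called at day 3 include it, as genes that met the filter only through irradiated arrays were not taken out of the counts. CLU changed by 3.41 ± 0.46 on the log2 scale (limma adjusted p = 0.000412) and the adhesion receptor gene SELP by 3.16 ± 0.49 (limma adjusted p = 0.000889). ITGA2B, a subunit of the fibrinogen receptor, and TREML1 were still higher at day 5, by 1.63 ± 0.36 (limma adjusted p = 0.00316) and 1.34 ± 0.31 (limma adjusted p = 0.00438), as was CLU by 2.13 ± 0.36 (limma adjusted p = 0.000541). The part of platelet RNA in the GFI1B values was not tested.

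LMO2, the bridging protein of the GATA1 and TAL1 complex, was called higher at days 3 and 5 and showed no change that passed at day 7. The probe A_01_P1679547 ran narrowly before irradiation, from 10.74 through 11.08 to 11.43. It read 12.83, 11.74, 13.10 and 12.08 in animals 1, 2, 4 and 7 at day 3, from 11.79 through 12.50 to 13.01 at day 5, and from 10.49 through 11.07 to 11.96 at day 7. All 10 arrays of days 3 and 5 lay above all pre-irradiation arrays. The log2 change was 1.36 ± 0.25 (limma adjusted p = 0.00204) and 1.32 ± 0.21 (limma adjusted p = 0.000337), 2.57-fold and 2.49-fold higher. Neither passed with normexp background correction, at 1.27 and 0.80 for this LMO2 probe (limma adjusted p = 0.0919 and 0.305), or with no shift between arrays, at 1.30 and 1.55 (limma adjusted p = 0.0525 and 0.027). With the animal as a block the day 3 change was 1.38 and did not pass (limma adjusted p = 0.0152), and with the scan session as a block the changes of 1.34 and 1.30 did not pass on either day (limma adjusted p = 0.129 and 0.0855). At day 7 it was −0.01, with a 95% interval of −0.43 to 0.42, and its sign turned to 0.07 with either 75th percentile or quantile normalization.

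The offset probe A_01_P1679546 changed by 1.29 ± 0.26 (limma adjusted p = 0.00297) and 1.27 ± 0.20 (limma adjusted p = 0.000343). Its day 3 change did not pass with the animal as a block, at 1.29 (limma adjusted p = 0.0163), or with the scan session as a block, at 1.47 (limma adjusted p = 0.108). The remaining LMO2 probe, A_01_P014250, read 13.51, 12.52, 13.31 and 12.47 in animals 1, 2, 4 and 7 at day 3 against 11.56 through 11.70 to 12.71 before, with animals 2 and 7 inside the earlier range. Its change of 0.99 ± 0.29 did not pass at day 3 (limma adjusted p = 0.0208), and that of 1.09 ± 0.21 did at day 5 (limma adjusted p = 0.0015), but not with the animal as a block, at 1.03 (limma adjusted p = 0.0118). With normexp or no shift between arrays neither of these LMO2 probes passed on either day, and normexp gave 0.71 and 0.55 at day 5. Of 10 monocyte genes tested, 4 rose at day 3 and 3 at day 5 (2 and 2 with the animal as a block), where 5.95 and 6.25% of named genes were higher. MS4A7 was among them and rose by 2.83 ± 0.33 (limma adjusted p = 0.000175) and 1.96 ± 0.30 (limma adjusted p = 0.000292). FCN1, an innate lectin gene, rose by 1.84 ± 0.24 and 1.27 ± 0.26 on days 3 and 5 (limma adjusted p = 0.000341 and 0.00222). The summed signal of the monocyte list ran from 208915 to 287480 before irradiation, from 339655 to 452488 at day 3, from 229527 to 343291 at day 5 and from 211490 to 365070 at day 7, and its part in the LMO2 values was not tested.

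TAL1, the helix-loop-helix member of the complex, had 2 probes that gave different pictures. The probe A_01_P1765876 was not well above background on any of the 24 arrays, ran from 2.57 to 5.53 over all of them and was not tested. A_01_P1800341 was bright throughout, from 15.15 through 15.37 to 16.14 before irradiation. It read 15.00, 14.41, 14.46 and 13.82 in animals 1, 2, 4 and 7 at day 3, from 13.12 through 13.41 to 13.55 at day 5, and from 13.07 through 13.27 to 14.18 at day 7. Each irradiated array lay below all pre-irradiation arrays. The change was −1.12 ± 0.26 at day 3, just outside the threshold (limma adjusted p = 0.00664), −2.16 ± 0.18 at day 5 (limma adjusted p = 1.91e-06) and −2.04 ± 0.22 at day 7 (limma adjusted p = 2.17e-05). The day 7 change of TAL1 did not pass with normexp, at −1.85 (limma adjusted p = 0.00878), or with no shift between arrays, at −1.81 (limma adjusted p = 0.0157).

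The bright TAL1 probe is among the most G+C-rich on the array, with 83.3% against a median of 43.3% over 43603 probes and with 26 probes at or above it, itself included. The dim one holds 55.0%. Of the 56 probes tested with a G+C content of at least 80%, the number lower by limma was 9, 31 and 32 on days 3, 5 and 7, and none was higher. Their median log2 change was −0.59, −1.29 and −1.19, against 0.02 over all probes on each day, and 45, 52 and 52 of the 56 were negative. The genes most like the bright TAL1 probe over the 24 arrays were PRSS22 (Pearson r = 0.99), C5AR1 (r = 0.99) and CCDC183 (r = 0.99), whose probes hold 78.3, 66.7 and 60% G+C. The part of base composition in the TAL1 value was not tested.

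**Figure D4:**
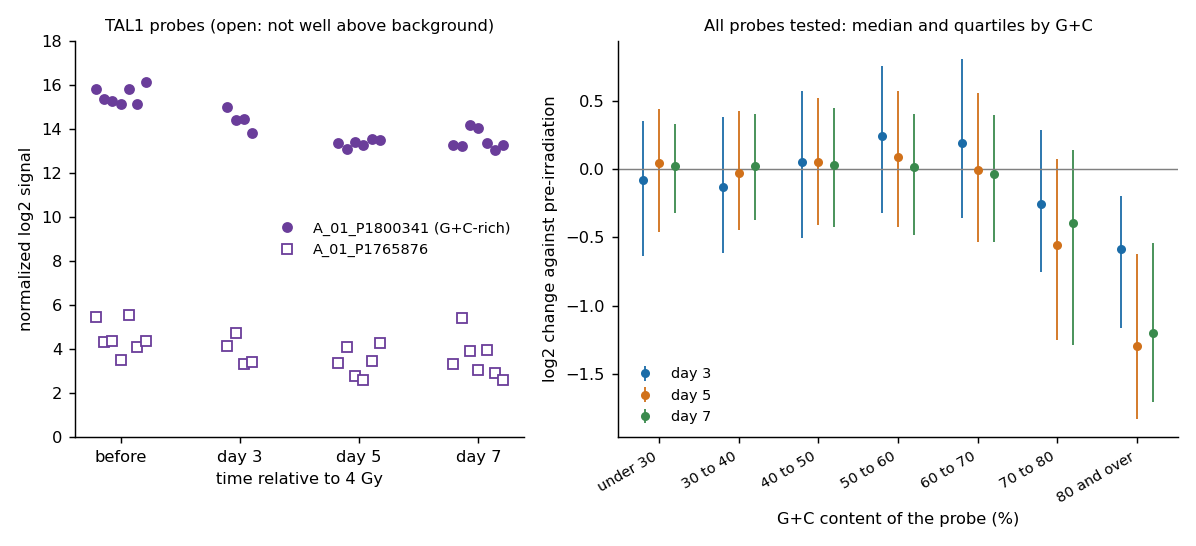
Left, normalized log2 signal of both TAL1 probes on each array before irradiation (7 arrays) and at days 3 (4), 5 (6) and 7 (7). Open squares are arrays on which the probe was not well above background. Right, median log2 change against pre-irradiation and quartiles (bars) of all probes tested, by G+C content of the probe. The medians lie between −0.13 and 0.24 below 70% and fall to −0.59, −1.29 and −1.19 at 80% and over.

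The days were also set against each other. Between days 7 and 3, 3 of 12 probes changed, GATA1 and both GFI1B probes, all lower, where 1.26% of all probes did. GATA1 changed by −2.50 ± 0.39 on the log2 scale (limma adjusted p = 0.00402), with all 7 day 7 arrays below all 4 day 3 arrays, and by −2.26 with the animal as a block (limma adjusted p = 0.0117). With normexp it was −1.70 for GATA1 and did not pass (limma adjusted p = 0.0587). Between days 5 and 3 none of 12 passed by limma (0.0184% of all probes, and 6 of 12 lower at an unadjusted p under 0.05), and likewise between days 7 and 5 (0.00369% of all probes, with 5 lower and 1 higher at an unadjusted p under 0.05). A fit of all groups with the animal as a random block called 2 of 12 between days 7 and 5, where it called 473 of all probes. For KLF1 the difference of day 7 from day 3 was −0.25 ± 1.32, with a 95% interval of −3.12 to 2.62.

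For none of 12 probes did a difference between males and females in the day 7 change pass an adjusted p of 0.05 by limma, and 0 of 12 had an unadjusted p under 0.05. None of all 27129 probes passed either, and 2357 of them had an unadjusted p under 0.05, so this is no result particular to the factors. The lowest adjusted p, 0.617, was that of TAL1 A_01_P1800341, which changed by −1.72 in males and −2.47 in females on the log2 scale. KLF1 changed by −4.95 in 4 males and −6.29 in 3 females, a difference of −1.34 ± 2.13. That difference is smaller than its standard error.

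Among genes that these factors serve, the fall was broad. The list of globin, heme and red cell membrane genes had 38 tested, of which 26, 30 and 27 were lower at days 3, 5 and 7 and none was higher by limma (2, 1 and 1 higher at an unadjusted p under 0.05), where 7.56, 9.11 and 7.19% of 10869 to 10872 named genes were lower. Its median log2 change was −2.69, −3.84 and −2.90. Without 3 genes that met the filter only through the pre-irradiation arrays, 23, 28 and 24 of 35 were lower. ALAS2, the first enzyme of heme synthesis in red cells, changed by −8.06 ± 0.36 at day 5 (limma adjusted p = 6.9e-09). EPB42, a membrane skeleton gene, changed by −4.78 ± 0.59 at day 3 (limma adjusted p = 0.000251) and −8.16 ± 0.51 at day 5 (limma adjusted p = 1.04e-07). SLC4A1, the anion exchanger of the membrane, met the filter only through the 7 pre-irradiation arrays, with 1 of 4 day 3 arrays well above background, and is given as a description, with measured means of 8.88 before and 3.94 at day 3. TMOD1 and the globin gene HBM changed by −6.01 ± 0.89 and −5.94 ± 0.95 at day 7 (limma adjusted p = 0.000215 and 0.000391). Globin transcripts had been depleted from the RNA before labelling, so HBM is read with that limit.

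The list of late erythroid and reticulocyte genes had 44 tested, of which 20, 30 and 30 were lower, against 7.56, 9.11 and 7.19% of named genes, and none higher by limma (2, 2 and 0 higher at an unadjusted p under 0.05), with medians of −1.88, −2.51 and −2.52. Without 2 genes that met the filter only before irradiation, 19, 28 and 28 of 42 were lower. STRADB, ISCA1 and TRIM58 led at day 3 with −4.56 ± 0.36, −4.20 ± 0.37 and −4.09 ± 0.42 (limma adjusted p = 1.31e-05, 2.69e-05 and 8.45e-05) and at day 5 with −6.81 ± 0.31, −6.12 ± 0.33 and −6.06 ± 0.42 (limma adjusted p = 6.9e-09, 3.44e-08 and 2.63e-07). TRIM58 is a ubiquitin ligase of late erythroid cells. At day 7 ISCA1, STRADB and the blood group gene ICAM4 led with −5.18 ± 0.57, −5.17 ± 0.72 and −4.93 ± 0.61 (limma adjusted p = 2.24e-05, 0.000134 and 5.2e-05).

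The factors work with partner proteins and corepressors. Of 26 partner and corepressor genes tested, 4, 5 and 4 were lower and 2, 4 and 0 higher on the 3 days, where 7.56, 9.11 and 7.19% of named genes were lower and 5.95, 6.25 and 2.68% higher, and the list medians were −0.03, −0.23 and −0.02. At day 7, 5 genes were higher at an unadjusted p under 0.05. With the animal as a block 1, 6 and 4 were lower and 0, 4 and 0 higher. TCF3 and TCF4, E proteins that pair with TAL1 and also serve B cells, were called on all 3 days. TCF3 changed by −1.17 ± 0.24, −1.14 ± 0.21 and −1.27 ± 0.22 (limma adjusted p = 0.00375, 0.00113 and 0.000651) and TCF4 by −1.98 ± 0.16, −2.18 ± 0.19 and −1.94 ± 0.17 (limma adjusted p = 2.06e-05, 3.04e-06 and 5.1e-06). TCF12, another E protein, changed by −1.31 ± 0.21 at day 3 (limma adjusted p = 0.00103). The deacetylase gene HDAC1 changed by −1.62 ± 0.32 at day 5 and −1.30 ± 0.25 at day 7 (limma adjusted p = 0.00148 and 0.00163). SSBP2, whose protein binds the LMO2 complex through LDB1, changed by −1.72 ± 0.38 at day 7 (limma adjusted p = 0.00368), and MAFF, which encodes a small Maf partner of NFE2, by 1.54 ± 0.36 at day 5 (limma adjusted p = 0.00477).

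Of 32 other blood lineage factors tested, 10, 8 and 6 were lower on the 3 days and 1, 0 and 0 higher (9, 7 and 5 higher at an unadjusted p under 0.05), where 7.56, 9.11 and 7.19% of named genes were lower and 5.95, 6.25 and 2.68% higher. With the animal as a block 5, 7 and 7 were lower and 0, 2 and 0 higher. BCL11A, EBF1, MXI1, SPIB and TFDP2 were lower on all 3. TFDP2, a cell cycle factor highly expressed in maturing red cells, changed by −3.88 ± 0.54, −5.68 ± 0.36 and −4.95 ± 0.52 (limma adjusted p = 0.000473, 1.28e-07 and 1.65e-05) and MXI1 by −1.82 ± 0.29, −2.06 ± 0.28 and −1.83 ± 0.21 (limma adjusted p = 0.00105, 0.00011 and 3.56e-05). BCL11A, a repressor of fetal globin that B cells also express, changed by −3.00 ± 0.15, −3.41 ± 0.17 and −3.51 ± 0.21 (limma adjusted p = 2.62e-06, 2.14e-08 and 1.8e-07). EBF1 and SPIB are B cell factors. EBF1 was at least 9.72-fold lower at day 3 (limma adjusted p = 3.3e-06), from a measured mean of 8.14 to 4.00, and changed by −4.09 ± 0.37 and −3.47 ± 0.39 on days 5 and 7 (limma adjusted p = 3.45e-06 and 2.61e-05). SPIB changed by −3.22 ± 0.24, −3.50 ± 0.19 and −3.24 ± 0.24 (limma adjusted p = 1.04e-05, 3.11e-08 and 8.41e-07).

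B cell markers fell with these genes. Apart from VPREB3, all 8 tested were lower on every day, where 7.27, 8.77 and 6.92% of named genes that met the filter in the same way were, and the summed signal of the 10 on the array ran from 34186 to 45263 before irradiation and from 1987 to 5242 afterwards. VPREB3 was well above background on all 7 pre-irradiation arrays and on no later array, so it was tested only through the group where it is high and is given as a description. It was at least 16.4-fold, 16.8-fold and 15.8-fold lower on the 3 days, from a measured mean of 8.81 to 3.16, 3.28 and 3.68. CD79B of the B cell receptor, FCRLA and the surface antigen gene MS4A1 were the others with the largest changes, at −4.15 ± 0.30 and −4.35 ± 0.19 for CD79B on days 3 and 5 (limma adjusted p = 8.33e-06 and 6.9e-09), −4.13 ± 0.29 and −4.65 ± 0.42 for FCRLA on days 3 and 7 (limma adjusted p = 8.12e-06 and 5.54e-06) and −4.31 ± 0.33 and −4.32 ± 0.31 for MS4A1 on days 5 and 7 (limma adjusted p = 6.99e-07 and 7.63e-07). The part of B cells in the values of BCL11A, TCF3 and TCF4 was not tested.

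KLF1 was the only KLF gene tested that was lower. Of 10 other KLF and SP genes tested, none was lower at the threshold or at an unadjusted p under 0.05, and 2, 2 and 1 were higher by limma on the 3 days, where 5.95, 6.25 and 2.68% of named genes were. A block for the animal left 0, 2 and 0. KLF4, a monocyte and epithelial factor, changed by 2.32 ± 0.26 and 1.60 ± 0.27 on days 3 and 5 (limma adjusted p = 0.000134 and 0.00051), KLF7 by 1.77 ± 0.30 and 1.69 ± 0.28 (limma adjusted p = 0.00127 and 0.000491) and SP4 by 0.90 ± 0.20 on day 7 (limma adjusted p = 0.0048).

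Basophil, mast cell and eosinophil genes bear on GATA1, which those cells use. Of 10 tested, 2 were lower at days 5 and 7 and none at day 3 by limma (2 lower and 2 higher at an unadjusted p under 0.05), where 9.11 and 7.19% of named genes were lower at days 5 and 7. They were FCER1A, a chain of the IgE receptor, with −1.97 ± 0.40 and −2.50 ± 0.54 (limma adjusted p = 0.00194 and 0.00348), and the eosinophil granule gene PRG3 with −1.43 ± 0.25 and −2.35 ± 0.28 (limma adjusted p = 0.00074 and 3.79e-05). The list's summed signal ran from 26382 to 72837 before irradiation, from 28227 to 43872 at day 3, from 11621 to 20807 at day 5 and from 5833 to 12671 at day 7. Its part in the GATA1 values was not tested. Of 11 stem and progenitor genes, 6 were well above background on every pre-irradiation array. Of the 7 tested, 1 was called in a comparison with pre-irradiation, AVP at day 5, which was well above background on 1 of 7 pre-irradiation arrays and none of day 5, with measured means of 4.70 and 2.68. None of 7 passed at day 3 or day 7 by limma, with 5 and 2 at an unadjusted p under 0.05.

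Neutrophil and T cell genes gave the rest of the setting. Of 17 neutrophil genes tested, 1, 2 and 3 were higher and 0, 1 and 1 lower on the 3 days, where 5.95, 6.25 and 2.68% of named genes were higher and 7.56, 9.11 and 7.19% lower. Without ELANE, which met the filter only through the pre-irradiation arrays, 1, 2 and 3 of 16 were higher and none was lower. CSF3R, the receptor of the growth factor G-CSF, was higher by 1.72 ± 0.26 and 1.82 ± 0.21 at days 3 and 5 (limma adjusted p = 0.000759 and 3.43e-05). LCN2 was higher by 1.87 ± 0.43 and 3.05 ± 0.54 at days 5 and 7 (limma adjusted p = 0.00435 and 0.000816) and S100A12 by 2.65 ± 0.45 at day 7 (limma adjusted p = 0.000599). The precursor granule gene ELANE was the lower call at days 5 and 7. It was well above background on 5 of 24 arrays and was tested only through the group where it is high. It is given as a description, with measured means of 6.23 before and 3.96 and 3.83 after. Of 11 T cell genes tested, 2, 1 and 0 were lower and none higher by limma, where 7.56, 9.11 and 7.19% of named genes were lower. At day 5 that is 9.09% of the T cell genes, close to the share of all named genes. At an unadjusted p under 0.05 6, 3 and 1 were lower and 1, 2 and 2 higher. IL7R changed by −1.97 ± 0.21 and −1.25 ± 0.18 at days 3 and 5 (limma adjusted p = 9.97e-05 and 0.000161) and CD8B by −1.71 ± 0.37 at day 3 (limma adjusted p = 0.00482). None of 10 NK cell genes passed on any day by limma, with 1 higher, 1 lower and 1 higher at an unadjusted p under 0.05.

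The genes whose signal followed each factor most closely over the 24 arrays, out of 10871, differed between factors. These are descriptions across arrays that share animals and the 4 times. KLF1 was closest to EPB42, ACSL6 and TRIM10 (r = 0.98, 0.97 and 0.97), and SOX6 A_01_P1726301 to RNF152, HBM and AQP1 (r = 0.98, 0.97 and 0.97), among which EPB42, HBM and the water channel gene AQP1 are red cell genes. GFI1B A_01_P020125 was closest to NRGN, AP2M1 and RBPMS2 (r = 0.91, 0.89 and 0.89), of which NRGN is on the platelet list, and GATA1 to AP2M1, GRAP2 and LRRC15 (r = 0.87, 0.86 and 0.85). LMO2 A_01_P014250 was closest to TRAFD1, LPCAT2 and ETV6 (r = 0.90, 0.89 and 0.89), and NFE2 A_01_P1732781, with the loosest neighbours, to TEKT2, LIMD2 and GABARAPL1 (r = 0.84, 0.83 and 0.82). After the group means were removed, KLF1 and SOX6 A_01_P1726301 still correlated with r = 0.85, while KLF1 and the bright TAL1 probe did with r = 0.21.

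How firmly the calls stand differed between days. With the animal as a block, 4 of 12 probes passed at day 3 (KLF1, both SOX6 probes and GFI1B A_01_P1699916), 6 at day 5 and 6 at day 7, and none of the 3 did for day 7 against day 3. Without SOX6 A_01_P1792986, which met the filter only through the pre-irradiation arrays, these were 3, 5 and 5 of 11. With the scan session as a block, none passed at day 3 (lowest limma adjusted p 0.0118), 4 did at day 5 (KLF1, both SOX6 probes and TAL1) and 6 at day 7, or 3 and 5 of 11 without that probe. At days 3 and 5 these values rest on the single pre-irradiation array of session 2. At day 7 the session block called 2916 of all probes. The day 3 count was 3 without animal 1, 4 or 7, and day 7 against day 3 gave 0 without animal 1 or 4 and 1 without animal 2 or 7. All 23 changes called kept their direction under every setting tried.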

How the data were processed

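Per the labels, the authors extracted one-colour intensity values with Agilent Feature Extraction 10.7, and the deposited files hold the scanner output of each array, whose headers name version 12.0.2.2 and give probe positions on rheMac2. The authors' value table is a deposited log2 signal shifted by a constant per array and served as an alternative. Here log2 of the processed signal was used, outlier-flagged spots were left out, spots of a probe were averaged, and each array was shifted to the median array (shifts from −2.03 to 0.87). A probe was kept if 4 or more of 24 arrays had it well above background, which left 27133, of which 12 belong to the members. Each comparison was fitted on the arrays of its 2 groups with limma 3.58.1 in R 4.3.3 (two-sided, Benjamini-Hochberg over all probes tested, threshold 0.005, or 0.05 for the sex comparison), and the script was tested on simulated data. For genes on the lists with several probes, the brightest was read. Genes on the lists were named where called with the 3 largest changes per comparison, or, for factors and partners, on all 3 days; some genes that this rule names are not reported here. The members and lists were chosen with earlier results of these data known. Of 43603 probes 23052 carry a symbol in the scanner output and 898 were named through RefSeq accessions. Replicate numbers name the animals, and deviations from the group means correlated within each animal (r from 0.13 to 0.45 over the 4 to 7 pairs of each comparison with pre-irradiation).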

Additional observations from a re-analysis of the deposited data

Results flagged for a closer look

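Of 52 sets of values tested (a probe in a group of 4 to 7 arrays), 3 held an array whose gap to the nearest other, as a share of the group's range, passed Dixon's limit, where chance gives about 2.6. For SOX6 A_01_P1792986 the pre-irradiation array of animal 1 read 10.48 on the log2 scale against 8.06 to 8.88 in the other 6 (share 0.662). At day 7 animal 4 read 8.09 on the same probe against 2.13 to 4.53 in the others (share 0.598), and KLF1 and the other SOX6 probe were also highest in that animal. For LMO2 A_01_P1679546 the day 7 array of animal 6 read 11.77 against 10.54 to 11.02 in the others (share 0.611).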

How the results depend on the processing

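The 23 called changes of member probes kept their direction in all 500 runs of the alternatives and were still called in 380. Counts below are of 12 probes unless stated, and the cause of a shift was not tested. At day 3 the count was 7, against 1 with normexp background correction, 4 with the replicate block, 0 with the slide block, 0 with the scan session block, 0 within scan session 2, 3 of 7 with the brightest probe of each gene, and 3 to 7 without 1 animal. At day 5 it was 7, against 4 with no shift between arrays, 2 with normexp, 4 with the session block, 3 within session 2, 4 of 7 with the brightest probe and 6 to 7 without 1 animal. At day 7 it was 6, against 3 with no shift, 2 with normexp and 5 to 6 without 1 animal. For day 7 against day 3 it was 3, against 0 with no shift, 0 with normexp, 0 with the replicate, slide or session block, 0 within session 2, 5 with all groups in 1 fit, 6 with the animal as a random block, 7 at an adjusted p of 0.05 and 0 to 2 without 1 animal. For day 7 against day 5 it was 0, against 2 with the random block and 3 at 0.05. The random block and the fits without pre-irradiation replicate 5 were chosen after seeing the data. The replicate block changed no count of the other comparisons by over 1.5 times. No slide holds both pre-irradiation and day 5 arrays, so the slide entered that comparison only as a random block. Over all probes the day 3 count of 3652 became 891 with no shift, 164 with normexp, 760 with the replicate block, 0 with the slide block, 37 with the session block and 864 to 3492 without 1 animal. The day 5 count of 4543 became 1080, 277 and 385 with no shift, normexp and the session block and 2714 to 4296 without 1 animal. The day 7 count of 2951 became 430 and 341 with no shift and normexp and 1654 to 2576 without 1 animal, and that of 343 for day 7 against day 3 became 2177 with all groups in 1 fit, 0 with the replicate block and 0 to 249 without 1 animal.

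All changes of sign were in changes that were not called. At day 3 NFE2 A_01_P012151 read 0.02 with quantile normalization and −0.49 to 0.08 without 1 animal. At day 5 GFI1B A_01_P1699916 read 0.00 with the session block and within session 2, and GFI1B A_01_P020125 read −0.30 with normexp and −0.42 with the session block or within session 2. At day 7 LMO2 A_01_P1679547 read 0.07 with the 75th percentile, 0.07 with quantile normalization, 0.23 with no shift, 0.15 with normexp, 0.01 with the series matrix values, 0.02 within session 1 and from −0.13 to 0.08 without 1 animal, and LMO2 A_01_P1679546 read from −0.08 to 0.06 without 1 animal and −0.01 without pre-irradiation replicate 5.

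For day 5 against day 3, normexp gave 0.47 for SOX6 A_01_P1792986, 0.15 for SOX6 A_01_P1726301 and −0.36 for LMO2 A_01_P014250. LMO2 A_01_P014250 read −0.10 with the slide block and −0.03 to 0.26 without 1 animal. LMO2 A_01_P1679547 read 0.05 with quantile normalization, 0.25 with no shift and −0.17 to 0.12 without 1 animal, and LMO2 A_01_P1679546 read 0.02 with the 75th percentile, 0.07 with quantile normalization, 0.28 with no shift, 0.01 with the series matrix values and −0.15 to 0.18 without 1 animal. For day 7 against day 3, KLF1 read 0.04 with no shift, 2.99 with the slide block, 2.41 with the session block or within session 2 and −1.10 to 0.22 without 1 animal. SOX6 A_01_P1792986 read −0.24 with normexp and −0.70 to 0.49 without 1 animal, and SOX6 A_01_P1726301 read 0.41 with the slide block and 0.43 with the session block or within session 2. For day 7 against day 5, normexp gave 0.28 for NFE2 A_01_P012151, 0.37 for NFE2 A_01_P1732781, −0.72 for SOX6 A_01_P1792986 and −0.75 for SOX6 A_01_P1726301, and without 1 animal these SOX6 probes read from −0.21 to 1.32 and from −0.02 to 1.

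The 5 lists of partners, KLF and SP genes, other lineage factors and red cell genes gave 212 calls in 450 tests of a gene on a day, 235 with any probe of a gene and 182 with the replicate block. Of named genes 7.56, 9.11 and 7.19% were lower and 5.95, 6.25 and 2.68% higher on the 3 days. The sum mixes unlike lists, and most of its calls were lower changes in the 2 red cell lists. It also holds genes that met the filter only through the pre-irradiation arrays. Signals near background limit KLF1 at days 5 and 7, SOX6 at days 3 to 7 and GFI1B A_01_P1699916 before irradiation and at day 7, where not every array was well above background.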
